A study of Mus musculus with 2 samples.

Results

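*Spp1*, the gene of the secreted phosphoprotein osteopontin, and 6 genes of its cell surface receptors (*Cd44*, *Itgav*, *Itga4*, *Itgb1*, *Itgb3* and *Itgb5*) were described across the immune cells of a mouse tumor. They were chosen by symbol from what is known of osteopontin binding, and they are 7 of the 27031 genes listed in the table. Osteopontin is made by macrophages, bone cells and many epithelia, and in tumors a macrophage population rich in it is widely described. It binds αv integrins, which pair the product of *Itgav* with a beta chain, through an arginine-glycine-aspartate motif, binds α4β1 through a neighboring stretch, and also binds the hyaluronan receptor CD44. Integrins are dimers of an alpha and a beta chain, so that a receptor needs the products of a pair of these genes in the same cell.

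Female C57BL/6 mice of 6 to 8 weeks carried MC38 cells, a mouse colon carcinoma line, under the skin. Telmisartan, a blocker of the angiotensin II type 1 receptor, was given at 5 mg/kg by daily gavage from the time of implantation, and control mice were given vehicle. On day 13, live CD45+ cells, that is leukocytes, were sorted from the tumors of 5 mice per group, pooled within the group, marked with Sample Tag 1 (control) or 2 (telmisartan) and captured together on 1 BD Rhapsody cartridge. The table and the tag reads shared the same 20726 cell barcodes. After filtering, 4542 control cells held 41768680 UMIs (unique molecular identifiers, each standing for 1 captured mRNA molecule) with a median of 8720.5 per cell, and 4427 telmisartan cells held 30939085 with a median of 6365. Telmisartan cells were thus shallower, and levels are given as CPM, the UMIs of a gene per 1000000 UMIs of the same cells.

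The cells were grouped by clustering without use of the 7 genes and named from marker genes. Macrophage-like cells numbered 8048 (4054 control and 3994 telmisartan), dendritic-like cells 664, T-like cells 186 and neutrophil-like cells 71. Detection of macrophage markers did not by itself set the classes apart, since all 11 were also found in T-like and dendritic-like cells. Over whole classes their summed level differed: 17738 CPM in control macrophage-like cells, 5939 in T-like and 3740 in dendritic-like cells. Single clusters lay closer. In control, *Lyz2* had 5480 CPM in macrophage subcluster 1 (below) and 3551 CPM in the T-like cluster with *Foxp3*, and *C1qb* had 900.7 and 1597 CPM. Macrophage-like cells were split into 6 subclusters, called here by number and leading genes: subcluster 1 (*Slfn4*, *Isg15*, *Plac8*), 2 (*Dcstamp*, *Tnfrsf9*, *Slpi*), 3 (*Cxcl9*, *Ly6i*, *Iigp1*), 4 (*Ms4a14*, *Serpinb6a*, *Folr2*), 5 (*Ccna2*, *Hmmr*, *Birc5*) and 6 (*Ung*, *Cdca7*, *Mcm2*). Subclusters 3 and 2 held most of the control cells (1299 and 778 of 4054), and subclusters 1 and 2 most of the telmisartan cells (1255 and 1167 of 3994). Subcluster 3 came mainly from the control pool, with 1299 control and 344 telmisartan cells. Its leading gene *Cxcl9* had 1695 CPM in the former and 1702 CPM in the latter. Whether it stands for that pool or for a cell state was not tested. Subcluster 1 was shallow, with medians of 2610 UMIs in control and 2752 in telmisartan cells. The cluster that it largely matched had 0.308 of the control median and 0.436 of the telmisartan median, so ratios for the whole class are also given without it where they left the counting interval. Each group was 1 pool, so no difference between the groups has a replicate check, no test was made, and the 95% intervals given cover counting error only.

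*Spp1*, the ligand gene, was found almost wholly in macrophage-like cells, and its level there was lower in telmisartan than in control tumors. Macrophage-like cells held 99.2% of all *Spp1* UMIs in control and 99.2% in telmisartan cells, against 91.7% of all UMIs in each group. In control macrophage-like cells *Spp1* had 135439 UMIs, or 3537 CPM (3518 to 3556), and in telmisartan cells 61483 UMIs, or 2168 CPM (2150 to 2185). The log2 ratio of telmisartan over control was −0.71 (−0.72 to −0.69). Without the shallow cluster the ratio was −0.68. Of the genes with at least 100 UMIs over both groups in these cells, 1.10% had a lower ratio than *Spp1*.

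Of the 7 genes, 6 reached 100 UMIs in macrophage-like cells, and *Spp1* was the only 1 of these 6 past a 1.5-fold difference in CPM. Among all 11074 genes that reached 100 UMIs, 2.26% were past 1.5-fold lower and 4.74% past 1.5-fold higher in telmisartan cells. The 6 genes had a median log2 ratio of −0.02, near the −0.045 of all genes, with 3 lower and 3 higher. The count was 3 when UMIs per cell were left unscaled, a setting that carries the difference in depth. There 91.2% of all genes were lower. No share of all genes past 1.5-fold was taken for this or the following settings, so their counts are no result about the members. The count was 0 when subcluster 2 was left out or when finer clusters were given their control shares, both chosen after seeing the data. It was also 0 for the planned log2 ratio of mean ln(1 + UMIs per 10000), where 1.5-fold is not a fold of levels.

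The level of *Spp1* differed among the macrophage subclusters, and so did its ratio between groups. In control cells subcluster 2 stood first with 6662 CPM (6606 to 6718), above the 3174 CPM (3115 to 3235) of subcluster 6, which is marked by DNA replication genes. Subclusters 3, 4, 5 and 1 followed with 2893, 2631, 2307 and 2080 CPM, and each of these 6 levels had an interval apart from the next. Subcluster 2, whose leading gene *Dcstamp* encodes a protein of cell fusion in osteoclasts and giant cells, held 40.0% of the macrophage *Spp1* UMIs in control cells with 21.2% of the macrophage UMIs. In telmisartan cells subcluster 6 stood first with 2903 CPM (2816 to 2992), followed by subcluster 2 with 2581 (2549 to 2614). Subclusters 3, 5 and 4 then had 2067, 2065 and 2015 CPM, levels whose intervals overlapped, and subcluster 1 had the lowest with 1450 CPM (1415 to 1486).

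The ratio was below 0 in all 6 subclusters. It was −1.37 (−1.39 to −1.35) in subcluster 2 and −0.52 (−0.57 to −0.47) in subcluster 1. In subclusters 3 and 4 it was −0.49 and −0.39. The cycling subclusters 5 and 6, led by genes of mitosis and of DNA replication, had the smallest differences, −0.16 (−0.20 to −0.12) and −0.13 (−0.18 to −0.08). With subcluster 2 left out, an alternative chosen after seeing the data, the ratio over the remaining macrophage-like cells was −0.45, so that *Spp1* was no longer past 1.5-fold. With subcluster 3 left out, likewise chosen afterwards, it was −0.82. When each subcluster was given its control share in both groups, the ratio was −0.69. With the control shares of finer clusters, those of resolution 0.8, it was −0.50, also an alternative chosen after seeing the data, and short of 1.5-fold.

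Subcluster 2 was itself mixed, and the groups had unlike shares of its finer clusters. Of its cells, 367 control and 79 telmisartan cells lay in a finer cluster led by *Cxcl3*, and 232 control and 962 telmisartan cells in a finer cluster led by *Nr4a2*. The *Spp1* ratio was −0.88 (−0.93 to −0.83) in the former cells, with 8778 CPM in control and 4766 CPM in telmisartan cells. In the latter it was −0.63 (−0.67 to −0.60), with 3786 and 2439 CPM. In both, which held most of the subcluster, *Spp1* was lower by less than the −1.37 of the whole. The next finer cluster, led by *Chil3*, had 5913 CPM in 113 control and 2950 CPM in 27 telmisartan cells, a ratio with an interval of −1.11 to −0.90, and the others were smaller, with ratios on both sides of −1.37.

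**Figure D1:**
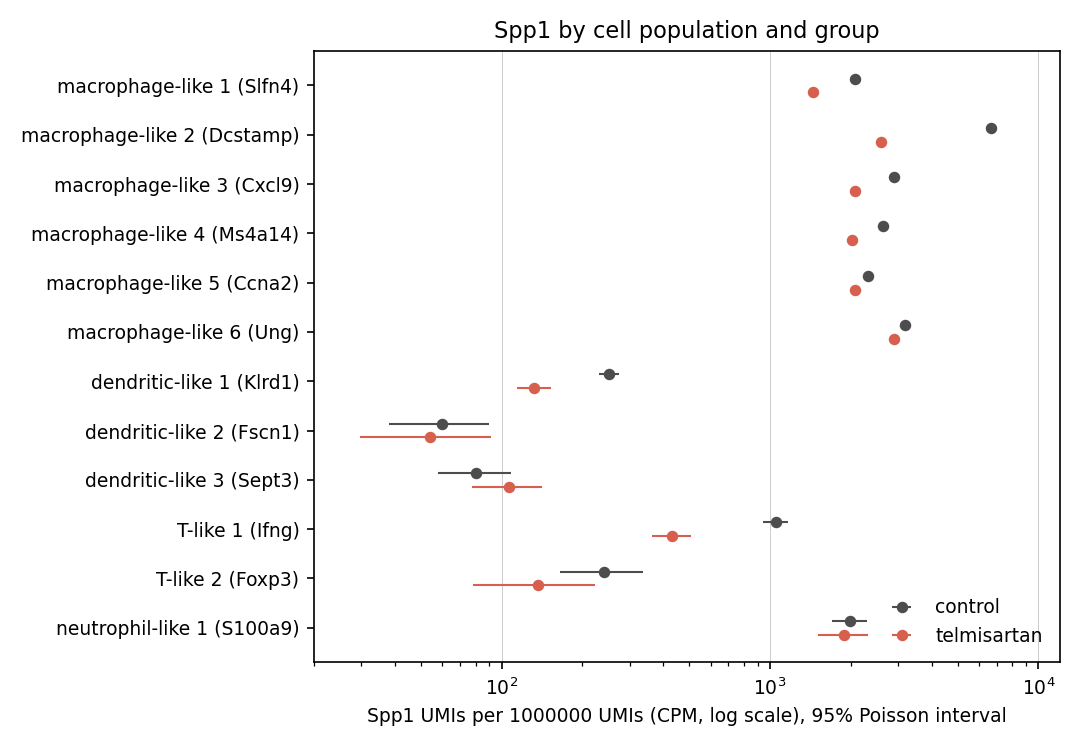
*Spp1* level in 12 cell populations (vertical axis, with the leading gene) as UMIs per 1000000 UMIs on a log scale (horizontal axis). Points are the summed UMIs of 1 pool per group, control in grey and telmisartan in red, and bars are 95% Poisson intervals; subcluster 2 of the macrophage-like cells had the widest gap of the macrophage subclusters, from 6662 to 2581 CPM.

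Subcluster 2 was also the only macrophage subcluster where a receptor gene passed the 1.5-fold difference. Here *Spp1* was past it lower and *Itgb5* past it higher, which made 2 of the 6 genes with at least 100 UMIs. Among 8497 genes measured in this subcluster, 2.70% were past 1.5-fold lower and 6.91% higher. In it *Itgb5* had 54.7 CPM (49.8 to 60.1) in control and 99.8 CPM (93.5 to 106) in telmisartan cells, a log2 ratio of 0.87 (0.70 to 1.03). By finer cluster, the *Itgb5* ratio was 0.53 (0.29 to 0.77) in its *Nr4a2* cells and −0.04 (−0.66 to 0.54) in its *Cxcl3* cells.

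Across single macrophage-like cells, *Spp1* was spread widely in both groups. Per 10000 UMIs of a cell, the median was 14.9 *Spp1* UMIs in control and 8.60 in telmisartan cells. The 90th percentile was 79.5 and 46.0, and the highest cell 333.7 and 513.3. The distribution was therefore lower at the middle and at the upper end, although the single highest cell was from the telmisartan pool. The 10% of cells with the highest values held 42.9% of the summed values in control and 44.5% in telmisartan cells, so the concentration in few cells was similar. Cells with at least 50 per 10000 made up 20.3% of control and 8.86% of telmisartan cells.

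**Figure D2:**
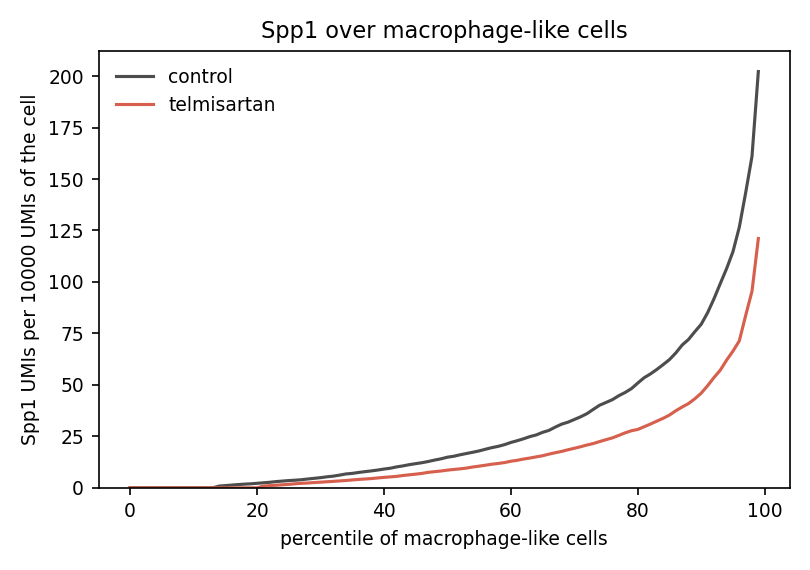
*Spp1* UMIs per 10000 UMIs of a cell (vertical axis) at each percentile of the macrophage-like cells (horizontal axis), for 4054 control cells in grey and 3994 telmisartan cells in red. The telmisartan line lies below the control line from the point where the latter leaves 0, with medians of 8.60 and 14.9; the cells of each line come from 1 pool, and the highest cells are not drawn.

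A share of cells with at least 1 UMI depends on depth, so it was also taken after thinning, that is drawing the same number of UMIs from each cell. At least 1 *Spp1* UMI was found in 86.8% (85.7 to 87.8) of control and 79.4% (78.1 to 80.6) of telmisartan macrophage-like cells, whose median depths were 9006 and 6474 UMIs. In dendritic-like cells, which are not known for osteopontin at a like level, the shares were 45.5% and 37.4% at median depths of 7595 and 6391. At 500 UMIs per cell, 52.2% of control and 41.0% of telmisartan macrophage-like cells held an *Spp1* UMI, against 5.99% and 4.04% of dendritic-like cells. At 1000 UMIs per cell, which 4009 control and 3922 telmisartan cells reached, the macrophage-like shares were 64.9% (63.4 to 66.4) and 55.6% (54.0 to 57.2).

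Outside the macrophage-like cells, *Spp1* UMIs were few, and single cells held many of them in the T-like and neutrophil-like classes. In dendritic-like cells, which present antigen to T cells, the level was 195.7 CPM in control and 117.1 CPM in telmisartan cells, a log2 ratio of −0.74 (−0.96 to −0.52). It was the only 1 of 5 measured members past 1.5-fold there, where 3.29% of 5839 genes were past it lower and 3.55% higher. By cluster, the cells led by *Klrd1*, *Plet1* and *Kmo* had 251.5 and 132.2 CPM. The *Xcr1*-bearing cluster, led by *Sept3*, had 80.5 and 106.2 CPM, and the *Ccr7*-bearing cluster, led by *Fscn1*, 59.8 and 54.2 CPM, levels whose intervals overlapped within each group. In the *Klrd1* cluster 46 of 463 cells held 472 of the 689 *Spp1* UMIs. The 11 macrophage markers summed to 3740 CPM in control and 3265 CPM in telmisartan dendritic-like cells. Of these, *C1qa* had a ratio of −0.81 (−1.15 to −0.48) and *Lyz2* of −0.14 (−0.21 to −0.08). The part that macrophage RNA had in the *Spp1* UMIs of dendritic-like cells was not tested.

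In T-like cells *Spp1* had 810.4 CPM in control and 354.3 CPM in telmisartan cells, a log2 ratio of −1.19 (−1.47 to −0.92). Again it was the only 1 of 5 measured members past 1.5-fold, with 7.90% of 1658 genes past it lower and 9.59% higher. These T-like UMIs sat in few cells. Of the 491 *Spp1* UMIs in the cluster of cytotoxic genes (*Ifng*, *Prf1*, *Nkg7*), 434 came from 14 of its 144 cells, and the median cell had 0. The cluster with *Foxp3*, the gene of the regulatory T cell factor, had 239.6 and 136.7 CPM from 33 and 16 UMIs. The neutrophil-like cells had 1987 CPM (1708 to 2299) in control and 1883 CPM (1512 to 2317) in telmisartan cells, with 200 of their 270 UMIs in 7 of 71 cells. The log2 ratio there was −0.08 (−0.46 to 0.30), with 0 inside the counting interval, and 1 cell held 57 of the 89 telmisartan UMIs.

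*Lyz2*, a lysozyme gene abundant in macrophages, was taken as a reference for *Spp1* in each class. Whether it tracks macrophage RNA in other cells was not tested. Per 100 *Lyz2* UMIs, macrophage-like cells had 32.2 *Spp1* UMIs in control and 21.9 in telmisartan cells. The T-like cells had 27.9 (24.9 to 31.3) and 21.5 (18.0 to 25.5). These values pooled unlike clusters. In control the cytotoxic cluster had 39.8 (35.1 to 45.2), among the values of macrophage subclusters (23.0 to 43.8). In telmisartan cells its interval, from 144 *Spp1* and 480 *Lyz2* UMIs, was 24.7 to 36.2. That interval overlapped those of telmisartan subclusters 1 (29.19 to 30.86, the highest) and 5 (25.15 to 26.38). It lay above those of the other telmisartan subclusters, of which subcluster 4 was the lowest at 16.24. The *Foxp3* cluster had 6.75 (4.59 to 9.61) in control and 6.04 (3.40 to 9.99) in telmisartan cells, below all macrophage subclusters of the same group. Dendritic-like cells had a lower ratio, 12.3 and 8.10. In the few neutrophil-like cells it was higher, at 134.1 (106.7 to 168.8) and 178.0 (124.5 to 257.0). The 11 macrophage markers summed to 5939 CPM in control and 3206 CPM in telmisartan T-like cells, all 11 detected, against 17738 and 16649 CPM in macrophage-like cells. The part that macrophage RNA had in the *Spp1* UMIs of T-like cells was not tested.

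*Cd44* encodes the hyaluronan receptor that also binds osteopontin and marks activated leukocytes. In macrophage-like cells its level went the other way from *Spp1*, with 712.5 CPM (704.1 to 721.0) in control and 974.0 CPM (962.6 to 985.6) in telmisartan cells. The log2 ratio was 0.45 (0.43 to 0.47), short of 1.5-fold. It was above 0 in all 6 subclusters, from 0.14 (0.07 to 0.21) in subcluster 3 to 0.55 (0.49 to 0.61) in subcluster 4. Subcluster weights taken from control brought the ratio down to 0.31, unscaled UMIs per cell to 0.04, and omission of the shallow cluster to 0.40. No class was known to lack *Cd44*. A *Cd44* UMI was found in 93.4% of control and 92.5% of telmisartan macrophage-like cells, and in 70.0% and 75.1% of dendritic-like cells. After thinning to 1000 UMIs the macrophage-like shares were 48.0% (46.4 to 49.6) and 58.4% (56.8 to 59.9).

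Among populations, *Cd44* was highest in neutrophil-like cells of control, with 1735 CPM (1475 to 2027). In telmisartan cells their level, 1312 CPM (1006 to 1682), was not apart from the 1307 CPM (1274 to 1341) of the shallow subcluster 1. In control this subcluster came next with 1001 CPM, and subcluster 2 followed with 923.8 and 1138 CPM. The subclusters 5 and 6 had 529.9 and 549.7 CPM in control cells, with overlapping intervals. All 3 dendritic-like and both T-like clusters lay under every macrophage subcluster in each group, from 213.1 CPM in the *Fscn1* cluster of control to 545.5 CPM in the *Klrd1* cluster of telmisartan cells, though the last had an interval that overlapped that of subcluster 5. In dendritic-like cells as a whole the ratio was 0.46 (0.33 to 0.58). In T-like cells it was 0.25 (−0.05 to 0.56) and in neutrophil-like cells −0.40 (−0.85 to 0.03), both with 0 inside the interval.

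*Itgav* encodes the αv chain, the partner of the β1, β3 and β5 chains in osteopontin receptors. In macrophage-like cells it had 132.0 CPM (128.4 to 135.7) in control and 153.3 CPM (148.8 to 157.9) in telmisartan cells. The log2 ratio was 0.22 (0.16 to 0.28), and it turned to −0.20 when UMIs per cell were not scaled for depth. In cells thinned to 500 UMIs the share with an *Itgav* UMI was also lower in telmisartan cells, 7.14% (6.36 to 7.98) against 8.07% (7.25 to 8.95), while at 1000 UMIs it was higher, 13.8% against 12.5%. It was not of 1 sign over subclusters: 0.39 (0.13 to 0.64) in subcluster 6, 0.22 and 0.18 in subclusters 3 and 4, and −0.12 (−0.24 to −0.01) in subcluster 2. Over the class it was 0.09 with control subcluster weights and 0.13 in cells thinned to 1000 UMIs. In alternatives chosen afterwards it was 0.06 with the control shares of the finer clusters, 0.09 without subcluster 3 and 0.34 without subcluster 2.

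The highest *Itgav* level was in the *Foxp3* cluster of T-like cells, with 501.0 CPM (389.8 to 634.1) in control and 811.7 CPM (656.7 to 992.3) in telmisartan cells, a ratio of 0.70 (0.23 to 1.17). The cytotoxic T-like cluster had 253.6 and 367.6 CPM. Over all T-like cells the level was 326.3 and 482.7 CPM, a ratio of 0.57 (0.26 to 0.87). T cell markers were higher there too, with a sum of 4050 CPM in control and 5489 CPM in telmisartan cells. Of these, *Trac* had a ratio of 0.63 (0.44 to 0.82). The part of T cell RNA in the *Itgav* ratio was not tested. Among the macrophage subclusters, 1 and 4 were the highest in both groups, with 199.6 and 178.8 CPM in control cells and overlapping intervals. The dendritic-like clusters had the lowest levels, 53.7 to 57.2 CPM in control and 32.3 to 65.9 CPM in telmisartan cells, with intervals that overlapped in each group. In telmisartan cells the interval of the *Fscn1* cluster (38.4 to 105.4) also overlapped those of subclusters 3 and 5 and of neutrophil-like cells.

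*Itga4* encodes the α4 chain, which pairs with β1 in a receptor of VCAM1, fibronectin and osteopontin and serves the entry of leukocytes into tissue. In macrophage-like cells it was lower in telmisartan tumors, with 99.9 CPM (96.7 to 103) in control and 81.2 CPM (77.9 to 84.6) in telmisartan cells. The log2 ratio was −0.30 (−0.37 to −0.22). Subcluster 2 was the exception, with 68.1 and 85.2 CPM and a ratio of 0.32 (0.16 to 0.48), whereas subcluster 6 had −0.52 (−0.85 to −0.20) and subcluster 3 −0.03 (−0.20 to 0.14). Within subcluster 2 the sign turned, at −0.19 (−0.40 to 0.03) in its *Nr4a2* cells and −0.10 (−0.68 to 0.43) in its *Cxcl3* cells. The value of the class was −0.10 with control subcluster weights. In alternatives chosen afterwards it was −0.27 with the control shares of the finer clusters, −0.16 without subcluster 3 and −0.45 without subcluster 2.

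The *Fscn1* cluster of dendritic-like cells, with *Ccr7*, stood apart for *Itga4*, at 1157 CPM (1052 to 1269) in control and 1054 CPM (932.2 to 1187) in telmisartan cells. The next population in each group was also dendritic-like, at 235.7 CPM in the *Xcr1*-bearing cluster of control and 177.7 CPM in the *Klrd1* cluster of telmisartan cells, the last with an interval that overlapped that of the cytotoxic T-like cluster. In the *Fscn1* cluster 104 of the 109 cells held an *Itga4* UMI, and the 11 cells with the most held 28.0% of them. So the level was carried by nearly the whole cluster. In the *Xcr1*-bearing cluster *Itga4* had 123 UMIs in 54 control cells and 49 UMIs in 38 telmisartan cells, a ratio of −1.06 (−1.57 to −0.57). Over all dendritic-like cells the ratio was −0.14 (−0.29 to 0.02).

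*Itgb1* encodes the β1 chain, the shared partner of αv, α4 and many other alpha chains. It was lower in telmisartan macrophage-like cells, with 427.5 CPM (420.9 to 434.1) in control and 358.5 CPM (351.6 to 365.6) in telmisartan cells, a ratio of −0.25 (−0.29 to −0.22), or −0.21 without the shallow cluster. Every subcluster had an interval below 0, and the ratios ran from −0.34 in subcluster 3 to −0.16 in subcluster 4, the narrowest range of the 6 measured genes. The interval of subcluster 4, the highest with 486.3 CPM in control and 436.2 CPM in telmisartan cells, overlapped those of the *Fscn1* dendritic-like and cytotoxic T-like clusters and, in control, that of subcluster 5. Neutrophil-like cells had 131.7 and 84.6 CPM from 12 and 4 UMIs, with intervals that overlapped those of the *Foxp3* cluster.

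*Itgb5* encodes the β5 chain, which joins αv in a receptor of vitronectin and osteopontin. Macrophage-like cells held 98.3% of its UMIs in control and 99.1% in telmisartan cells, beside 91.7% of all UMIs. In control, however, the T-like cells had 51.2 CPM (32.8 to 76.2) from 24 UMIs, an interval that overlapped those of subclusters 1 and 2, and in telmisartan cells 13.3 CPM from 6 UMIs. The level in macrophage-like cells was 86.7 CPM (83.8 to 89.7) in control and 102 CPM (98.1 to 105) in telmisartan cells, a ratio of 0.23 (0.16 to 0.30). This ratio turned to −0.18 without scaling for depth and was 0.31 without the shallow cluster. It was 0.10 as a mean over cells of UMIs per 10000. With the control shares of the finer clusters, an alternative chosen afterwards, it was 0.14. Subcluster 4, with *Folr2* among its leading genes, had the highest level, 129.0 and 132.8 CPM, the latter with an interval that overlapped that of subcluster 6, and a ratio of 0.04 (−0.10 to 0.18). Outside subcluster 2 the ratio was 0.11, so that the difference over the class was small without that subcluster. An *Itgb5* UMI was found in 45.2% of control and 41.2% of telmisartan macrophage-like cells against 7.90% and 6.06% of dendritic-like cells, and after thinning to 1000 UMIs the macrophage-like shares were 7.81% and 9.20%.

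*Itgb3* encodes the β3 chain, known from the αvβ3 receptor of osteoclasts and endothelium and from platelets. It was the only 1 of the 7 genes under 100 UMIs in macrophage-like cells, where it had 38 UMIs in control and 19 in telmisartan cells, or 0.992 CPM (0.702 to 1.36) and 0.670 CPM (0.403 to 1.05). Of the *Itgb3* UMIs, 58.3% (48.1 to 67.9) in control and 61.7% (48.2 to 73.9) in telmisartan cells came from T-like cells. Their level was 128.0 CPM (97.6 to 165) from 60 UMIs and 81.9 CPM (57.7 to 113) from 37 UMIs. Both T-like clusters carried it, with 141.9 and 77.7 CPM in the cytotoxic and 94.4 and 94.0 CPM in the *Foxp3* cluster. In T-like cells 31.1% of control and 20.5% of telmisartan cells held an *Itgb3* UMI at median depths of 3982 and 3056, against 0.863% and 0.476% of the deeper macrophage-like cells. After thinning to 500 UMIs only 1 of 74 control and 4 of 112 telmisartan T-like cells held one. Of 5 platelet markers, 3 were listed, and in T-like cells these had 1 UMI of *Ppbp* in control and 0 in telmisartan cells, with *Itga2b* and *Treml1* at 0 in both.

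**Figure D3:**
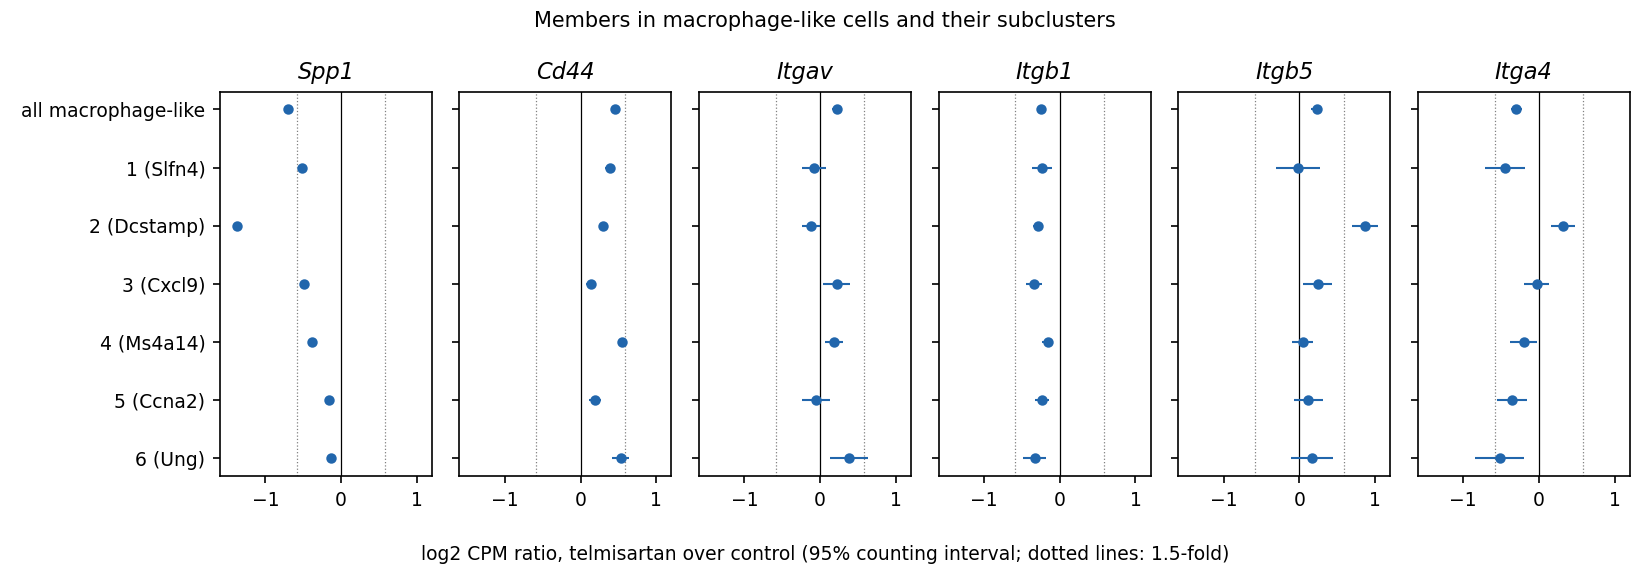
Log2 ratio of CPM, telmisartan over control (horizontal axis), for the 6 genes with at least 100 UMIs, in all macrophage-like cells and their 6 subclusters (vertical axis, with the leading gene). Points are 1 pool against 1 pool, bars are 95% counting intervals and dotted lines mark 1.5-fold; *Spp1* and *Itgb1* lie below 0 and *Cd44* above 0 throughout, while *Itgav*, *Itgb5* and *Itga4* lie on both sides, and without scaling for depth *Itgav* and *Itgb5* over all macrophage-like cells lie below 0.

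Ligand and receptor genes were next counted as pairs in single macrophage-like cells thinned to 1000 UMIs. Both *Spp1* and *Cd44* were found in 32.2% (30.8 to 33.7) of control cells, beside a product of the single shares of 31.2%, and in 32.3% (30.9 to 33.8) of telmisartan cells, beside 32.5%. *Itgb1* was found in 32.4% of the control cells with *Spp1* and in 28.0% of those without it, and in 27.8% and 22.9% of telmisartan cells. For *Itgb5* these shares were 6.76% and 9.74% in control and 9.67% and 8.62% in telmisartan cells. Both *Spp1* and *Itgb5* were found in 4.39% (3.78 to 5.07) of control cells, beside a product of 5.07%. In telmisartan cells it was 5.38% (4.70 to 6.13), beside 5.12%, so an opposite order in the groups was not resolved. The pair of *Itgav* and *Itgb5*, the chains of 1 receptor, was found in 0.948% of control and 1.43% of telmisartan cells, beside products of 0.976% and 1.27%. The pair of *Itga4* and *Itgb1* was found in 2.74% and 1.58%, beside 2.41% and 1.61%.

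*Cxcl9*, an interferon-induced chemokine gene, was taken as a marker of another macrophage state. Both *Spp1* and *Cxcl9* were found in 12.3% (11.3 to 13.3) of control cells, beside a product of 14.6%, and in 5.61% (4.91 to 6.38) of telmisartan cells, beside 6.71%. In control cells with *Spp1*, 18.9% held *Cxcl9*, and in those without it 28.9%. Cells with *Spp1* thus held *Cxcl9* less often in these pools, a description of cells from 1 pool that were not treated as replicates.

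The genes most like each member were sought over 12 profiles, the 6 macrophage subclusters in each group, by Pearson's r of log2(CPM + 1) among 6709 genes with at least 1000 UMIs. The profiles share 1 library and a few subclusters, so r is only a description. For *Spp1* the most alike were *Myadm* (0.91), *Fkbp1a* (0.86), *2510009E07Rik* (0.86), *Sh3bgrl* (0.86) and *Slc25a24* (0.85, the least of them). For *Cd44* they were *Slc15a3* and *Arih2* (both 0.98), for *Itgav* *Impdh1* (0.98) and *Abca1* (0.97), and for *Itga4* *Selenos* and *Inpp5b* (both 0.92). For *Itgb1* they were *Cxcl14* and *Commd10* (both 0.95), for *Itgb5* *Cotl1* (0.97) and *Cd72* (0.96), and for *Itgb3*, with only 57 UMIs, *Dync1li2* (0.85) and *Pde3b* (0.82). Among the members, *Spp1* had r of 0.51 with *Itgb1* and of −0.17 with *Cd44*. *Cd44* and *Itgb1* had −0.74.

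Other genes of the same pathway were read in macrophage-like cells, each list beside all 11074 genes, of which 250 were past 1.5-fold lower and 525 higher. Of 5 other integrin chains found in osteopontin receptors, 4 were measured and none was past 1.5-fold, with a median of 0.12, *Itgb7* at 0.40, *Itga5*, the fibronectin receptor chain, at 0.21, *Itga9* at 0.03 and *Itga8* at −0.36 (−0.72 to 0.00). Of 8 other leukocyte integrin genes, 6 were measured, and all 6 ratios were below 0, 1 of them with 0 in its interval, with a median of −0.29, beside 6318 lower genes of all 11074. Past 1.5-fold lower were *Itgax*, the CD11c gene, at −0.80 (−0.85 to −0.75) and *Itgal*, the αL chain of LFA-1, at −0.66 (−0.74 to −0.57). *Itgam*, the CD11b gene and the one with the most UMIs, had −0.07.

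Proteases that cleave osteopontin or activate those that do had 5 of 10 genes measured, a median of 0.13 and 1 gene past 1.5-fold. That gene was *Mmp9*, a gelatinase, with 209 UMIs in control and 15 in telmisartan cells, a log2 ratio of −3.37 (−4.23 to −2.61). Its level was highest in neutrophil-like cells, with 571.0 CPM, and neutrophil markers were found in macrophage-like cells too. All 5 were detected there, with sums of 33.6 CPM in control and 30.8 CPM in telmisartan cells, of which *Csf3r* was higher in telmisartan cells, 19.2 against 14.1 CPM, and *S100a8* lower, 8.32 against 14.0 CPM. Without *Csf3r* the sum was 19.5 CPM in control and 11.6 CPM in telmisartan cells, a ratio of −0.75 (−0.94 to −0.56), with *Cxcr2* at 0.13 (−0.52 to 0.77). The part of neutrophil RNA in this value was not tested. *Ctsb*, a lysosomal protease with the most UMIs of the list, had 0.32 (0.30 to 0.33). The 3 enzyme genes that modify osteopontin were all measured and short of 1.5-fold: the kinase gene *Fam20c* at −0.03, the phosphatase gene *Acp5* at 0.12 (−0.05 to 0.30) and the transglutaminase gene *Tgm2* at 0.21.

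Of 11 other ligands of these receptors and enzymes that make hyaluronan, 5 were measured, none past 1.5-fold, with a median of −0.23. *Fn1*, which encodes fibronectin, had the most UMIs and a ratio of −0.26 (−0.28 to −0.25). None of the 4 other genes of the family of acidic bone phosphoproteins reached 100 UMIs. Of 12 genes of the adhesion machinery that ties integrins to actin, 10 were measured, none past 1.5-fold, with a median of 0.03 and *Tln1*, the talin gene, at −0.17. All 6 partners of CD44 were measured and none was past 1.5-fold, with a median of −0.04 and *Cd74*, the invariant chain and MIF receptor, at −0.51 (−0.52 to −0.50). All 6 transcription factors reported at the *Spp1* promoter were measured, none past 1.5-fold, with a median of 0.17. All 6 ratios were above 0, 1 of them with 0 in its interval, beside 4756 higher genes of all 11074. *Ets2* had the most UMIs and 0.21 (0.18 to 0.25), and *Runx1* the highest ratio, 0.36 (0.31 to 0.40).

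Markers of other cell types were also summed in macrophage-like cells. The 8 T cell markers summed to 12.2 CPM in control and 14.0 CPM in telmisartan cells, and the 8 dendritic markers to 14.4 and 17.1 CPM, all detected. The 4 markers of natural killer cells summed to 0.810 and 0.776 CPM. In T-like cells these 4 summed to 172.7 CPM in control and 95.2 CPM in telmisartan cells. The part of natural killer cells in the T-like values was not tested. The 5 epithelial or tumor markers summed to 61.2 and 44.1 CPM, nearly all of it *Cdh1*, with *Krt18* at 0 in control and *Krt8* at 0 in telmisartan cells. The 3 listed platelet markers summed to 22.9 and 13.2 CPM, most of it *Ppbp*. The 5 fibroblast markers had a higher sum in telmisartan cells, 14.1 CPM against 7.86 CPM. Epithelial, fibroblast and tumor cells lack CD45, by which the cells were sorted. The part of any of these cell types in the ratios of the 7 genes was not tested.

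The 7 genes lie on 5 chromosomes of the mouse genome, build GRCm38, by GENCODE M21, while the counts were made with release M19. *Spp1* lies at chr5:104435118-104441050 on the plus strand, with 8 exons in its longest coding transcript. *Cd44* (chr2:102811141-102901665, minus strand), *Itgav* (chr2:83724397-83806916, plus) and *Itga4* (chr2:79255426-79333123, plus) share chromosome 2. *Itgb1* lies at chr8:128685654-128733200, *Itgb3* at chr11:104608000-104670476 and *Itgb5* at chr16:33829665-33949338, all on the plus strand. *Gm42793* overlaps *Spp1* on its own strand and has no column in the table. Whether any of its molecules were counted as *Spp1* cannot be told from the counts. *Cerkl* overlaps *Itga4* on the other strand, with 61 UMIs in control and 40 in telmisartan macrophage-like cells, few beside the 3824 and 2304 of *Itga4*.

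The bases that encode the integrin-binding motif show what the αv receptors meet in the ligand. In *Spp1* they lie in exon 7 of 8, and the stretch chr5:104439457-104439516 (GRCm38, plus strand) is printed with the codons CGA, GGT and GAT, for arginine, glycine and aspartate, in capitals.
*Spp1* coding stretch: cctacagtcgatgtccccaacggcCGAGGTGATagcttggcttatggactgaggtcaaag

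The promoter of *Spp1* is shown because it is where the listed transcription factors are reported to bind. RefSeq promoters on GRCm38.p6 held an entry for 6 of the 7 genes, all but *Itgb3*, and the first entry of each gene was read (*Spp1* has 2). Letters known for 3 factor families were searched on both strands in the 250 bases before the start of each gene: AACCACA for RUNX, GGAAGT for ETS, and CACGTG or CATGTG for MITF. The RUNX letters were present in the *Spp1* window and in 4.40% of 32851 promoters, the ETS letters in the *Spp1* window and in 19.7%, and the MITF letters in 17.6% but not in this window. Of the other 5 members with an entry, *Itgav* held the ETS letters at 2 places and the rest held none of the 3. The window is chr5:104434861-104435110, plus strand, with the RUNX and ETS matches in capitals, in that order. A match describes the letters only.
*Spp1* promoter: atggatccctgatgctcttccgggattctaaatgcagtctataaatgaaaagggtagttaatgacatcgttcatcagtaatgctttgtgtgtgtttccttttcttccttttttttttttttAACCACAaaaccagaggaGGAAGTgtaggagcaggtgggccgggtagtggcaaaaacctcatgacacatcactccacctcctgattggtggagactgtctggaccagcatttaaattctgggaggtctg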

How the data were processed

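The deposited counts of both tables were made by the authors with the BD Rhapsody WTA Analysis Pipeline 1.11 on GRCm38 with GENCODE M19: UMIs per gene and cell, and Sample Tag reads per cell. Whether counting used the strand is not given in the sources used here. A cell was assigned to a group with at least 10 tag reads, 75% of them on 1 tag. Cells with 150 to 5000 genes and at most 20% mitochondrial UMIs were kept, and the 942 cells (9.51%) with the highest Scrublet scores (scanpy 1.11.5) were removed as doublets, as its automatic threshold marked 0. Cells were clustered with Seurat 5.3.0 in R 4.3.3 (2000 variable genes without the 7 members, 30 components, resolution 0.5), and macrophage-like cells again at 0.45. CPM, exact Poisson and Clopper-Pearson intervals were computed with scipy 1.17.1. Only the log2 ratios and their intervals were checked on simulated data. These were Poisson sums per gene, so the check does not cover UMIs that gather in few cells. edgeR 4.0.16 gave TMM factors for 1 alternative. Named were the members, the genes of modifying enzymes and measured genes of the other lists past 1.5-fold or with the most UMIs. Genes of the highest r, markers and the leading 3 genes of subclusters were also named. The leading genes of dendritic-, T- and neutrophil-like clusters, *Runx1* and the 4 other osteopontin receptor chains were named after their values were seen. Single neutrophil markers and the finer clusters of subcluster 2 were read after the first values were seen. The members and lists were chosen with earlier results of these data known.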

Additional observations from a re-analysis of the deposited data

Results flagged for a closer look

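For a pair of receptor genes the direction of the difference between groups was opposite in 2 macrophage subclusters. *Itgav* had a log2 ratio of 0.39 in subcluster 6 (*Ung*, *Cdca7*, *Mcm2*) and of −0.12 in subcluster 2 (*Dcstamp*, *Tnfrsf9*, *Slpi*), a gap of 0.51. *Itga4* had a log2 ratio of 0.32 in subcluster 2 and of −0.52 in subcluster 6, a gap of 0.84. The 2 groups had unlike shares of the finer clusters within subcluster 2. In its finer clusters led by *Nr4a2* and *Cxcl3* the ratio of *Itga4* was −0.19 and −0.10, and that of *Itgav* 0.12 (−0.07 to 0.31) and −0.05 (−0.34 to 0.23). Neither difference between subclusters was tested, since each group was 1 pool.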

How the results depend on the processing

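*Spp1* was lower in telmisartan macrophage-like cells under all 15 planned and 3 added alternatives, and its log2 ratio stayed within the counting interval of −0.71 in 7 of them. It was −0.65 with 90% of tag reads on 1 tag, −0.69 without doublet removal, −0.78 as a mean over cells per 10000, −0.79 in cells thinned to 1000 UMIs, −0.68 without the shallowest cluster and −0.69 with control subcluster weights. It was −0.45 without the subcluster led by *Dcstamp*, −0.82 without that led by *Cxcl9* and −0.50 with the control shares of the clusters at resolution 0.8, all chosen after seeing the data. The cause of these shifts was not tested. Without scaling it was −1.12, where the median of all genes was −0.46; relative to that median *Spp1* was −0.66, as in CPM. The log2 ratio of mean ln(1 + UMIs per 10000) was −0.30, with a median of −0.17 over all genes.

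Of the 6 genes, 1 was past 1.5-fold. Under the alternatives no share of all genes past the bar was taken, so their counts are no result about the members. The count was 3 without scaling, where 91.2% of all genes were lower, and 3 at a fold of 1.2, which is a lower bar. It was 0 without the *Dcstamp* subcluster and 0 with the control shares at resolution 0.8. It was also 0 for the ratio of mean ln values, but 1.5-fold is not a fold of levels there, so that count cannot be read as a lost difference. *Itgav* turned to −0.20 and *Itgb5* to −0.18 without scaling, which leaves the lower depth of telmisartan cells in the ratio; relative to the median of all genes they were 0.26 and 0.28. *Cd44* was higher and *Itgb1* and *Itga4* were lower under all alternatives. With the members allowed to shape the clusters, the highest subcluster had 3.98 times the *Spp1* CPM of the lowest over both groups pooled, against 2.67 times. No paired analysis was possible because each group was 1 pool. Low counts limit *Itgb3* in macrophage-like cells and all receptor genes but *Cd44* in the 71 neutrophil-like cells, where intervals are wide.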

Other observations

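Cells left out of the comparison carried the same genes. Cells over the mitochondrial limit, 3586 of control and 5373 of telmisartan, had a median of 946 and 1006 UMIs, with median mitochondrial shares of 68.0% and 60.6%. Their *Spp1* level was 685.3 and 481.6 CPM, a log2 ratio of −0.51 (−0.58 to −0.44), and *Cd44* had a ratio of 0.33 (0.26 to 0.41). Over their non-mitochondrial UMIs, a scaling chosen after seeing the data, the ratio of *Spp1* was −0.61 (−0.68 to −0.54) and that of *Cd44* 0.24 (0.16 to 0.31). *Itgav* was lower there under both scalings, −0.26 and −0.36, whereas it had 0.22 in macrophage-like cells that were kept. In cells removed as doublets, 536 and 406, *Spp1* had 3424 and 2405 CPM, a ratio of −0.51 (−0.54 to −0.48), and *Cd44* 0.31 (0.25 to 0.37). *Itgb1* at −0.22 (−0.32 to −0.13) and *Itgb5* at 0.15 (−0.040 to 0.345) had the sign of the kept macrophage-like cells. The other members differed from the kept cells there, with *Itgav* at −0.17 (−0.33 to −0.01), *Itga4* at 0.13 (−0.06 to 0.33) and *Itgb3*, from 6 and 16 UMIs, at 2.04 (0.61 to 3.68). These cells were not sorted by type, and the difference was not tested.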
